A study of Homo sapiens with 4 samples.

Results

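The MARCHF genes encode membrane-associated RING-CH ubiquitin ligases, and their m6A peaks were examined in OE-19 cells, an established line of adenocarcinoma of the esophagogastric junction. The 10 members, MARCHF1 to MARCHF10, were taken by name from the 20046 protein-coding genes of the annotation. The family was selected on measured values, since the fold enrichment of a MARCHF9 peak stood among the strongest of both lists, so all its values are given as a description with no test. A peak belonged to a member when its summit lay between the start and the end of the gene. This gave 10 peaks of 24607 in replicate 1 and 5 peaks of 19318 in replicate 2.

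The series holds 4 samples of untreated OE-19 cells, 2 immunoprecipitated with an anti-m6A antibody and 2 input samples without antibody. It belongs to a study of the m6A reader IGF2BP3 in this tumor. Peak lists of both immunoprecipitated samples, each called on 1 sample, were used, and the input samples entered no comparison, since no list of theirs was analysed here. The lists carry no read numbers and no strand, so the depth behind a peak is unknown, and the study calls the replicates biological, while the labels do not say how they were separated. All samples come from this 1 cell line.

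MARCHF ligases share a RING-CH domain, a zinc-binding fold that recruits a ubiquitin-conjugating enzyme, and most members hold it on the cytosolic side of a membrane. They attach ubiquitin to other membrane proteins, which are then internalized and degraded or extracted from the membrane. MARCHF9 and MARCHF4 act in the Golgi and at the cell surface and lower MHC class I, MARCHF1 and MARCHF8 act on surface receptors such as MHC class II and the transferrin receptor, and MARCHF2 and MARCHF3 reside in endosomes. MARCHF5 is anchored in the outer mitochondrial membrane, MARCHF6 in the endoplasmic reticulum, and MARCHF7 and MARCHF10 lack the usual membrane spans. m6A is the methylation of adenosine inside mRNA, placed by the METTL3 complex within the DRACH context, of which GGAC is the most favoured core, and it is known to gather in long exons and around stop codons.

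Sequences at or near the summits of the shared last-exon peaks are shown first, because the results below refer to them. They were read from hg38 on the strand of the gene, 5′ to 3′, with GGAC in capitals whether or not it lies in DRACH. The lists hold peaks, so no single m6A site was mapped. The MARCHF9 stretch runs along chr12:57758691-57758791 on the plus strand, 50 nt to each side of the replicate 1 summit, and lies in the coding sequence (CDS) of the last exon. The end of MARCHF9 exon 3, chr12:57758250-57758300 on the plus strand, is shown because a shared peak had its summits there with no GGAC within 50 nt of them. The MARCHF2 site is chr19:8438601-8438630 on the plus strand and the MARCHF8 site is chr10:45458198-45458227 on the minus strand. Each was cut around the GGAC nearest to the replicate 1 summit, so each holds a GGAC by choice. The MARCHF2 stretch includes the replicate 1 summit alone, and the MARCHF8 stretch includes neither summit.
MARCHF9 last exon: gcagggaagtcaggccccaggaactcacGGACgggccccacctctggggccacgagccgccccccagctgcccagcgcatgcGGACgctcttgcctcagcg
MARCHF9 end of exon 3: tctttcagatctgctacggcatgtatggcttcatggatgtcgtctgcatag
MARCHF2 last exon: ctgtcctgtggaaGGACttccacttcaaca
MARCHF8 last exon: ttgtcattttcctGGACatccatgaagagc

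To explore which members carried m6A peaks, summits were placed on the exons of each gene. MARCHF2, MARCHF8 and MARCHF9 had an exonic peak in both replicates, that is 3 of 10 members (30%, 95% Wilson interval 10.8 to 60.3%), beside 33.4% of all protein-coding genes. With MARCHF5, which had exonic peaks in replicate 1 alone, 4 of 10 members had one in either replicate (40%, 16.8 to 68.7%), beside 43.1% of all protein-coding genes. Both shares were near those of all genes. MARCHF1, MARCHF3, MARCHF4, MARCHF6 and MARCHF7 had no peak anywhere in the gene in either list, and MARCHF10 had an intronic peak alone. Absence from a list says that no peak passed the q threshold of 0.05 there.

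**Figure D1:**
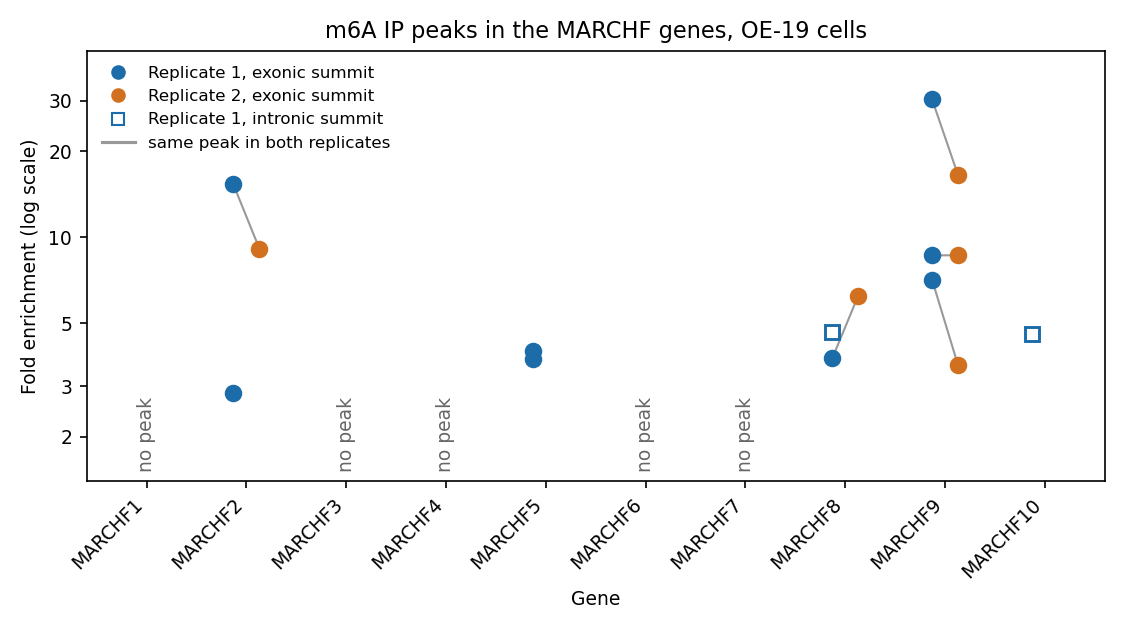
Fold enrichment of every peak in the 10 MARCHF genes (vertical log axis), with replicate 1 in blue, replicate 2 in orange, open squares for intronic summits and grey lines joining the same peak in both replicates. The last-exon peak of MARCHF9 stands highest at 30.4 and 16.5, and 5 genes have no peak.

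MARCHF9 held 3 exonic peaks in each replicate, the most of any member. Peaks were counted as called on the genome, so peaks on both sides of an intron count separately, for MARCHF9 as for all genes. Of 20046 protein-coding genes, 6686 had any exonic peak in both lists and 1264 (6.31% of all) had at least 3 in both. MARCHF9 (ENSG00000139266.6) spans chr12:57755103-57760411 on the plus strand. Its transcript ENST00000266643.6 has 4 exons of 783, 156, 193 and 1849 nt, and 1514 nt of its 2981 nt are 3′ UTR. The peaks covered 48.9% of the transcript in replicate 1 and 39.6% in replicate 2.

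The strongest MARCHF9 peak lay in the last exon. In replicate 1 it ran over chr12:57758570-57759332, with a fold enrichment of 30.4 and a −log10 q of 93.6. In replicate 2 it ran over chr12:57758577-57759330, with a fold enrichment of 16.5 and a −log10 q of 74.1. Its borders differed little between the lists, with widths of 763 and 754 bp and summits 5 bp apart, while its fold enrichment was higher in replicate 1. Of 18488 exonic peaks in replicate 1, 0 had a higher fold enrichment and 33 had a higher −log10 q. Of 12003 exonic peaks in replicate 2, 65 had a higher fold enrichment and 94 had a higher −log10 q. The peak was thus the first by fold enrichment among the exonic peaks of protein-coding genes in replicate 1, and stood at percentile 99.5 in replicate 2. In the whole lists, intronic and intergenic peaks included, 4 peaks of replicate 1 and 76 of replicate 2 were higher.

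Its summits lay in the CDS, 154 nt upstream of the stop codon in replicate 1 and 149 nt upstream in replicate 2, counted from its first base as in all that follows. They fell at nt 179 and nt 184 of the last exon, which is the longest exon of the transcript. The 754 nt that both lists covered comprised 318 nt of CDS and 436 nt from the stop codon onward. This stretch held 7 GGAC, or 9.28 per kb, against 14 GGAC in the other 2227 nt of the transcript, or 6.29 per kb. Of the 7, 4 were in the CDS, at −233, −207, −174 and −120 nt from the stop codon, and 3 were in the 3′ UTR, at 8, 83 and 348 nt. The GGAC at −174 and at −120 are those in capitals in the MARCHF9 last-exon sequence above, 20 nt before and 34 nt after the replicate 1 summit. In both of these and in that at −207 the next base is G, which takes them out of DRACH, a pentamer whose last base is A, C or T. The other 4 of the 7 were within DRACH, beside 15 of the 21 GGAC of the whole transcript. The densities above count GGAC whether or not they lie in DRACH, and the share in DRACH was not higher in the peak.

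The second MARCHF9 peak sat at the end of exon 3. It ran over chr12:57758239-57758374 in replicate 1, with a fold enrichment of 8.63 and a −log10 q of 12.9, and over chr12:57758064-57758380 in replicate 2, with a fold enrichment of 8.64 and a −log10 q of 13. The summits were 1 bp apart, 9 nt and 8 nt before the last base of the exon. Of the peak, 54.4% lay in the following intron in replicate 1 and 25.2% in replicate 2. Neither GGAC nor DRACH occurred within 50 nt of either summit on the genome, and the exon 3 sequence above gives most of the exonic bases of this window. Of the window, 41 bases in replicate 1 and 42 in replicate 2 lay outside the exons. The last-exon bases that follow exon 3 in the mRNA were not searched for it. The replicate 2 peak held 1 GGAC farther from its summit, and the replicate 1 peak held 0. The intron that parts this peak from the last-exon peak is 262 nt long, and on the spliced transcript the 2 summits were 188 nt apart in replicate 1 and 192 nt apart in replicate 2. Counted from the stop codon on that transcript, the exon 3 peak reached the junction at −333 nt in both lists. The last-exon peak began at −325 nt in replicate 1 and at −318 nt in replicate 2. On the mRNA, 2 separate signals and 1 signal parted by the intron cannot be told apart here.

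The MARCHF9 peak nearest the 5′ end lay in exon 1, with its summit in the 5′ UTR. It ran over chr12:57755176-57755807 in replicate 1, with a fold enrichment of 7.09 and a −log10 q of 14.3, and over chr12:57755186-57755418 in replicate 2, with a fold enrichment of 3.56 and a −log10 q of 3.73. Summits were at nt 318 and nt 266 of the transcript, 52 bp apart, and no GGAC lay within 50 nt of either. The peak was thus wider and stronger in replicate 1. MARCHF9 and CDK4, which encodes a cyclin-dependent kinase of the G1 phase, overlap here by 911 bp on opposite strands. The peak lay inside the CDK4 gene on a stretch where CDK4 has no annotated exon, and 0 bp of any member's peak fell in an exon of another gene.

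MARCHF2 had the strongest peak after MARCHF9. The gene (ENSG00000099785.11, chr19:8413270-8439017, plus strand) was placed on ENST00000602117.1, its transcript with the longest CDS but not its MANE Select transcript, with 5 exons and 1667 nt. The last-exon peak ran over chr19:8438356-8438945 in replicate 1, with a fold enrichment of 15.3 and a −log10 q of 39.6. In replicate 2 it ran over chr19:8438469-8438869, with a fold enrichment of 9.12 and a −log10 q of 25.8. Its summits lay just past the stop codon, at 65 nt and 3 nt, and were 62 bp apart, with 2 GGAC within 50 nt of each. The peak held 7 GGAC in replicate 1 and 6 in replicate 2. A further peak in exon 4, over chr19:8430619-8430884, was absent from replicate 2 and had a fold enrichment of 2.85 and a −log10 q of 1.63 in replicate 1. That was the lowest fold enrichment of any member peak.

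MARCHF8 had a last-exon peak whose summits lay on the stop codon or next to it, at 2 nt and 4 nt. The gene (ENSG00000165406.16) spans chr10:45454585-45594906 on the minus strand, and ENST00000453424.7 has 8 exons with a last exon of 3959 nt. The peak ran over chr10:45458114-45458502 in replicate 1, with a fold enrichment of 3.76 and a −log10 q of 5.04. In replicate 2 it ran over chr10:45457973-45458499, with a fold enrichment of 6.23 and a −log10 q of 8.2. The MARCHF8 value was higher in replicate 2, unlike those of the MARCHF9 and MARCHF2 last-exon peaks. The GGAC printed above lay 27 nt and 25 nt after the summits. In replicate 1 a narrow peak of 123 bp, over chr10:45459057-45459179, had its summit 1 nt past the end of exon 7, with a fold enrichment of 4.65, and 51.2% of it lay in the intron.

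MARCHF5 carried peaks in replicate 1 alone. The gene (ENSG00000198060.10) spans chr10:92291167-92353964 on the plus strand, and ENST00000358935.3 has 6 exons. The first peak, over chr10:92291304-92291449, lay in the 5′ UTR, with a fold enrichment of 3.98, a −log10 q of 8.91 and 2 GGAC within 50 nt. The second, over chr10:92351162-92351305, had its summit 8 nt past the stop codon start, with a fold enrichment of 3.75, a −log10 q of 7.21 and no GGAC within 50 nt. Both peaks were narrow, at 146 and 144 bp, beside a median width of 288 bp in that list. MARCHF10 (ENSG00000173838.12, chr17:62701314-62808344, minus strand) had 1 peak, in replicate 1, over chr17:62794029-62794268 with a fold enrichment of 4.57. Its summit lay in an intron 5663 nt from the nearest exon, and it was not shared.

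**Figure D2:**
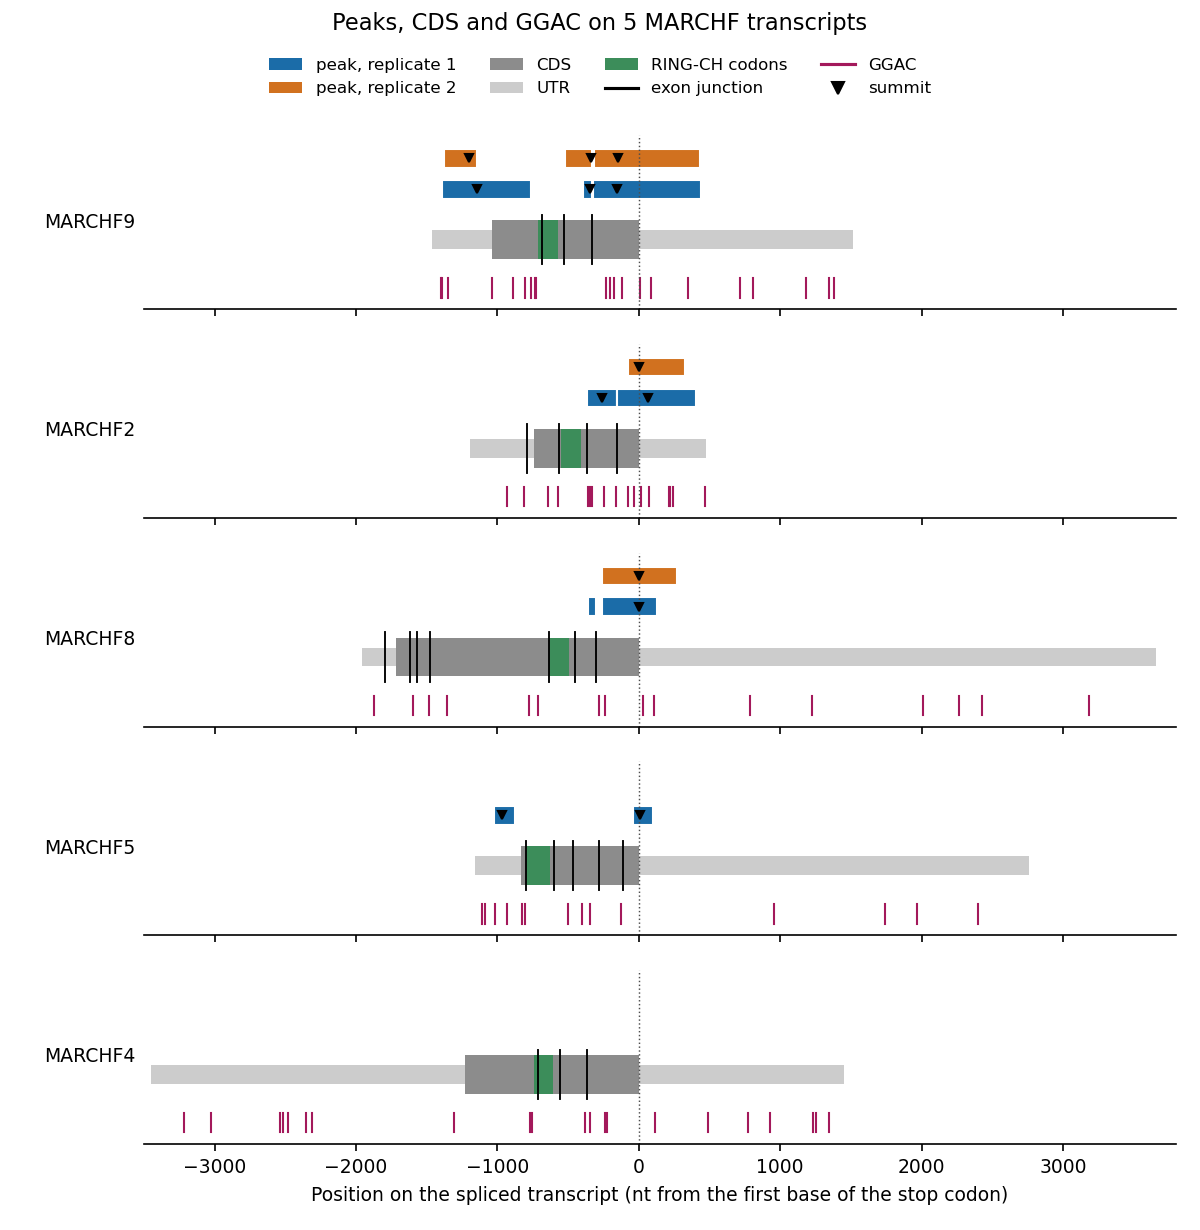
Spliced transcripts of MARCHF9, MARCHF2, MARCHF8, MARCHF5 and MARCHF4 drawn to scale against the distance in nt from the stop codon (horizontal axis), with peaks of replicate 1 (blue) and replicate 2 (orange), summits (triangles), exon junctions (black lines), RING-CH codons (green) and GGAC (purple ticks). Each transcript with a peak has a summit within 200 nt of the stop codon, and MARCHF4 has no peak.

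Position around the stop codon was compared with all exonic peaks. A summit within 200 nt of the stop codon was found for 4 of 8 member exonic peaks in replicate 1 (50%, 21.5 to 78.5%), beside 24.9% of all exonic summits. In replicate 2 it was 3 of 5 (60%, 23.1 to 88.2%), beside 27.5%. By gene, 4 of the 4 members with an exonic peak had a summit in this window, beside 54.1% of protein-coding genes with an exonic summit on their transcript. All 7 summits in the window, which belong to 4 distinct peaks, lay in the last exon. The intervals are wide because the members have few peaks, and in both replicates they include the share of all peaks.

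GGAC was searched in the 50 nt to each side of a summit on the genome, introns included, reading the gene's strand. It was present at 5 of 8 member exonic summits in replicate 1 (62.5%, 30.6 to 86.3%), beside 50% of all exonic summits, and at 3 of 5 in replicate 2 (60%, 23.1 to 88.2%), beside 52.1%. Its reverse complement, GTCC, was present at 2 of 8 and 0 of 5, beside 31.1% and 29.3%. DRACH was present at 7 of 8 and 4 of 5, beside 85.8% and 89.1%, and GGAC followed by A, C or T is itself DRACH. The exon 3 summit of MARCHF9, whose window lay partly in the intron, was the member summit without DRACH in either list. The intervals for GGAC include the shares of all exonic summits.

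The replicates were then set side by side. Of the member exonic peaks, 5 of 8 in replicate 1 overlapped a peak of replicate 2 by at least 1 bp (62.5%, 30.6 to 86.3%), beside 60.6% of all exonic peaks of replicate 1. In the other direction it was 5 of 5 (100%, 56.6 to 100%), beside 95.9%. When the overlap had to cover at least 50% of both peaks, 3 of 8 (37.5%) and 3 of 5 (60%) were shared, without the 5′ UTR and exon 3 peaks of MARCHF9. The 5 shared peaks were those of MARCHF2, MARCHF8 and MARCHF9. Over all 10853 pairs of exonic peaks, the median log2 ratio of replicate 1 to replicate 2 was 0.44, and 80.6% of pairs were higher in replicate 1. The log2 ratio was 0.88 for the MARCHF9 last-exon peak, 0.99 for its 5′ UTR peak and 0.74 for the MARCHF2 peak. It was −0.00 for the MARCHF9 exon 3 peak, so 3 of 5 member pairs were higher in replicate 1. MARCHF8 went the other way, at −0.73, and 2.22% of all pairs had a ratio that low or lower. With 1 list per replicate the error of a single ratio is not known.

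**Figure D3:**
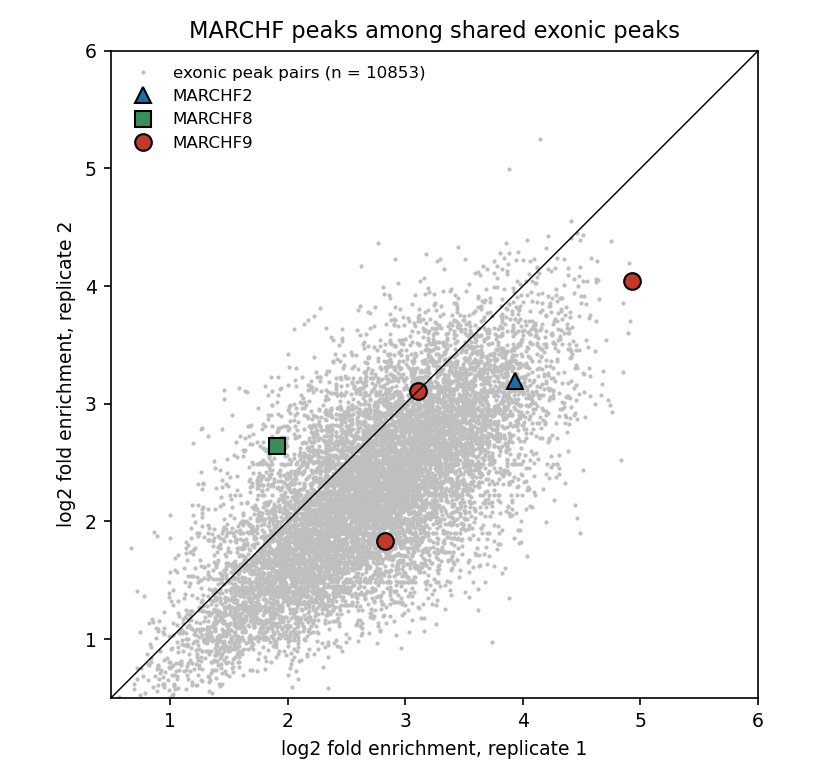
log2 fold enrichment in replicate 1 (horizontal axis) against replicate 2 (vertical axis) for 10853 exonic peak pairs (grey), with the 5 shared MARCHF pairs marked by gene and the line of equal values. The MARCHF9 last-exon peak lies farthest right, the MARCHF8 peak lies above the line, and 80.6% of all pairs lie below it.

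The geometric mean of the 2 fold enrichments gave 1 value for each shared peak. It was 22.4 for the MARCHF9 last-exon peak, 11.8 for MARCHF2, 8.63 for MARCHF9 exon 3, 5.03 for the MARCHF9 5′ UTR and 4.84 for MARCHF8, beside a median of 5.63 over all pairs. Genes were then ordered by their strongest shared peak, and a peak in exons of overlapping genes counted for each, as at ranks 1 and 2. Among 6606 genes in this order, MARCHF9 came 5, MARCHF2 came 547 and MARCHF8 came 4839, with a median of 6.52 over genes. The MARCHF8 value was thus below that of most genes with a shared peak. MARCHF9 exceeded MARCHF2, the next member, by 0.99 in log2 fold enrichment in replicate 1 and by 0.85 in replicate 2. The exonic peaks of MARCHF2, MARCHF5 and MARCHF8 ranged from 2.85 to 15.3 in replicate 1 and from 6.23 to 9.12 in replicate 2, so the MARCHF9 last-exon peak lay above all of them in each list.

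The genes whose strongest shared peak was most like that of MARCHF9 were found by distance in log2 fold enrichment over the 2 replicates. ARL14, a small GTPase of the ARF family, was nearest, at a distance of 0.15, with fold enrichments of 29.9 and 18.3 and a summit 310 nt before the stop codon. HRCT1 followed at 0.205, with 28.8 and 14.5 and a summit 250 nt past it. ENSG00000284691, listed without a symbol, was at 0.286, with 24.9 and 16.6 and a summit 920 nt past it. All 3 summits lay in the last exon of the transcript, which for ARL14 and HRCT1 is the single exon, of 1289 and 935 nt.

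To compare MARCHF9 with its paralogues, the translated CDS of all 11 family genes, MARCHF11 included, were aligned in pairs. MARCHF9 was closest to MARCHF4, with identical residues over 65.3% of the shorter protein, and next to MARCHF11, with 50.3%. The 3 genes also shared internal exons of 156 and 193 nt, between a first and a last exon of other lengths. Neither MARCHF4 nor MARCHF11 had a peak in either list. The other closest pairs were MARCHF2 and MARCHF3 at 66.3%, MARCHF1 and MARCHF8 at 44.6%, MARCHF7 and MARCHF10 at 31.1%, and MARCHF5 and MARCHF6 at 24.5%. In each of these pairs exactly 1 gene had an exonic peak, except MARCHF7 and MARCHF10, where neither did. At 24.5%, MARCHF5 and MARCHF6 were hardly closer than MARCHF5 and MARCHF10 at 24.1%, and MARCHF5 had peaks in replicate 1 alone. No expression values were used, so whether the family genes without a peak were expressed in these cells is not known.

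The MARCHF9 summit lay in a part of the CDS where few residues are identical between the paralogues. Of the 34 codons inside the printed MARCHF9 window, 33 were aligned with MARCHF4, with 10 identical residues, where 72% of all aligned residues were identical, and 34 with MARCHF11, with 5 identical residues. None of the 4 CDS GGAC of the MARCHF9 peak had a GGAC at the aligned codons of MARCHF4 or MARCHF11, and for that at −207 MARCHF4 had no aligned codons. The MARCHF4 bases aligned to the window, chr2:216259417-216259557 on the minus strand of hg38, hold 2 GGAC at other codons, include codons with no MARCHF9 counterpart and are printed to show the divergence.
MARCHF4 aligned codons: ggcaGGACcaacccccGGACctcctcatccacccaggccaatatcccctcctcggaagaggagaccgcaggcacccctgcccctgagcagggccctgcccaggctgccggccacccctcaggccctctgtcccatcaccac
The RING-CH domain, which defines the family, was found by a pattern search in 11 of 11 translated transcripts. Of the 13 member exonic summits, 0 lay in the RING-CH codons, 10 lay downstream and 3 upstream, with the 5 shared peaks counted once in each list, so 8 distinct peaks underlie them. The MARCHF9 last-exon summits were 420 and 425 nt downstream of them.

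The members were also compared by what their transcripts hold. MARCHF2 had 10.2 GGAC per kb and MARCHF9 had 7.04, at percentiles 98.4 and 89.1 of 19689 protein-coding genes, whose median was 3.82. MARCHF8, also with peaks in both replicates, had 2.85 GGAC per kb, at percentile 31.6. MARCHF3, MARCHF10 and MARCHF4 had 5.32, 4.67 and 4.28 GGAC per kb and no exonic peak. MARCHF5 had 3.57, MARCHF6 1.97, MARCHF1 1.95 and MARCHF7 1.82. The order of densities was not that of peak strength, since MARCHF2 had the higher density and MARCHF9 the stronger peak. Genes with a peak in both replicates had a median of 4.07 GGAC per kb and those with no exonic peak had 3.61. Nor was the order of lengths that of peaks. MARCHF6, with 9641 nt, 26 exons and a last exon of 6795 nt, had no peak, while MARCHF2, with 1667 nt, had peaks in both lists. Expression is not known here, and whether density or length bears on the peaks was not tested.

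**Figure D4:**
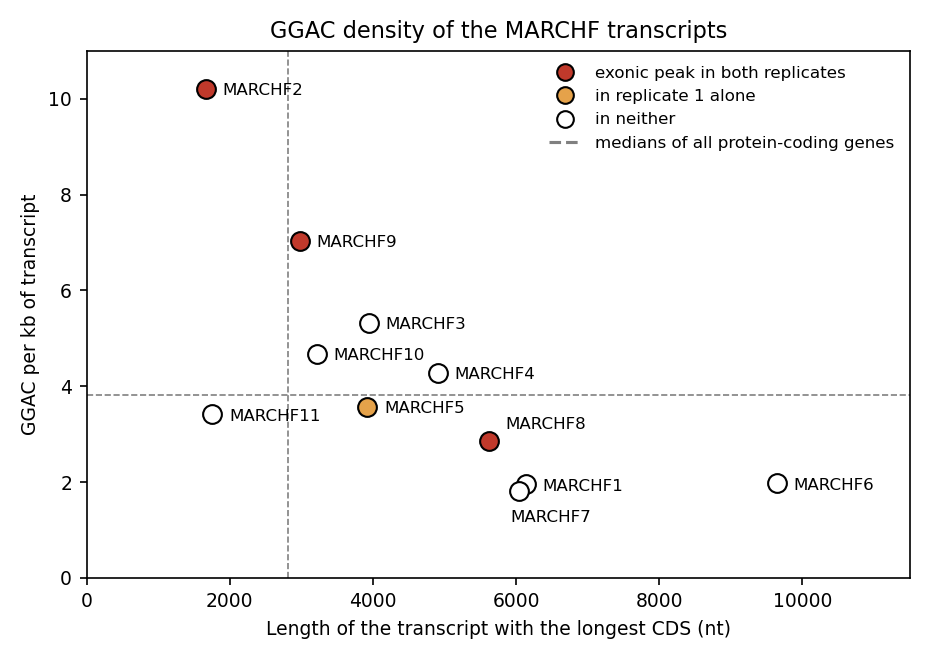
GGAC per kb (vertical axis) against length in nt (horizontal axis) of the transcript with the longest CDS, for MARCHF1 to MARCHF11, filled by exonic peaks in both replicates (red), in replicate 1 alone (orange) or in neither (white), with dashed medians of all protein-coding genes. MARCHF2 at 10.2 and MARCHF9 at 7.04 GGAC per kb stand highest, and MARCHF8 with peaks in both lists stands at 2.85.

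Genes that work with these ligases were examined as lists. Of 8 ubiquitin-conjugating enzymes that serve membrane-bound ligases, 2 had an exonic peak in both replicates (25%), 2 in replicate 1 alone and 4 in neither. UBE2G2, a partner of ligases of the endoplasmic reticulum, had fold enrichments of 10.2 and 7.35, and UBE2J2, itself anchored in that membrane, had 4.99 and 3.4 with a summit 17 nt before the stop codon. Of 15 cell surface and endosomal targets, 4 had a peak in both (26.7%), 2 in replicate 1 alone and 9 in neither. TNFRSF10A, a TRAIL death receptor, had 10.6 and 7.4, and STX6, a syntaxin of the trans-Golgi and endosomes, had 7.76 and 4.12. With so few genes, these shares do not set either list apart from the 33.4% of all protein-coding genes.

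Of 10 mitochondrial and endoplasmic reticulum targets of MARCHF5 or MARCHF6, 6 had a peak in both replicates (60%), 1 in replicate 1 alone and 3 in neither. PMAIP1, which encodes the BH3-only protein NOXA, had fold enrichments of 8.8 and 10.8, and MAVS, the adaptor of RIG-I signalling, had 7.8 and 8.02. MFN2, MCL1 and SQLE also had a peak in both. Of 8 other ligases of the endoplasmic reticulum and mitochondrial membranes, 6 had a peak in both (75%), 1 in replicate 1 alone and 1 in neither. TRIM59 had 14.1 and 14.2, RNF145 had 8.01 and 11.7, and RNF185 had 10 and 7.85, with SYVN1, RNF139 and MUL1 as the others. Beside these shares, 33.4% of all protein-coding genes had a peak in both, and the lists are small and were chosen with earlier results of these data known. The 33.4% counts every annotated gene, expressed or not, and whether these lists differ from it was not tested. The median geometric mean of the strongest shared peak was 6.39, 4.87, 5.71 and 8.18 over the 4 lists in this order, beside 6.52 over all genes with one.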

How the data were processed

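m6A meRIP-seq peak lists of 2 immunoprecipitated OE-19 samples were analysed. Per the study's methods, the authors aligned reads with TopHat2 (hg38) and used MACS2 for peak calling, both at default settings, whereas the submitters' processing notes name fastp, HISAT2 and MACS2. Versions, and whether the input served as control, are not given in the sources used here. The labels describe UV-fixed, lysed cells and the methods fragmented total RNA. The authors deposited, for each peak, a fold enrichment (a ratio over the caller's background), a −log10 p-value, a −log10 q-value, a score and a summit offset. The deposited p-value and score were not used. The highest deposited q-value was 0.0491 in replicate 1 and 0.0497 in replicate 2. Since MACS2 divides by a local background, fold enrichment is not an m6A stoichiometry.

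Python 3.11.15, pysam 0.24.0 and Biopython 1.88 were used with GENCODE version 44. The 24 chromosome names matched hg38 in both lists, and 0 peaks ran past an end. A further 20 contig names in replicate 1 and 29 in replicate 2 were not placed on genes. Each gene's longest-CDS transcript set the regions, in 1-based coordinates, with 200 nt to each side of the first stop base and 50 nt to each side of a summit for motifs. A percentile is the percent of exonic peaks at or below a value, or of protein-coding genes for GGAC per kb. Proteins were aligned globally with a gap opening score of −11 and an extension of −1. Wilson intervals at 95% cover counting error only and treat peaks as independent. Scripts were tested on simulated data. The members, the 4 gene lists and the rule for named genes (all members, the 3 strongest genes of each list, the 3 nearest to MARCHF9) were chosen with earlier results of these data known. Some of the genes that the rule names are not reported here. No test was made. The alternatives were other q, fold, overlap, summit, stop and motif limits, and leaving out each replicate. Others used the peak midpoint, any exonic base, the MANE Select transcript, the reverse complement, ranking by −log10 q or other sets of peaks. The log2 differences were tried only with other sets of peaks: summits in exons of several genes left out, the whole gene body, and shared peaks alone.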

Additional observations from a re-analysis of the deposited data

How the results depend on the processing

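Over 14 results, 59 of 64 alternatives stayed near the reported value. Near means within 1.5 times for a count and within the Wilson interval or the SD between replicates for the others. The Wilson intervals over 5 or 8 peaks are wide, so a share could fall far and still count as near. The number 59 thus says little about the stability of the shares. The alternatives for the log2 differences kept the same strongest peaks. They returned 0.99 and 0.85 unchanged, are among the 59, and say nothing about the stability of these differences. With a minimum fold enrichment of 5, the member exonic peaks in replicate 1 numbered 4 in place of 8. With a window of 25 nt, GGAC accompanied 20% of member exonic summits in replicate 2 in place of 60%, and 37.5% in replicate 1 in place of 62.5%. The replicate 1 fall stayed inside its interval and is among the 59. An overlap of 50% of both peaks left 37.5% and 60% of member exonic peaks shared, in place of 62.5% and 100%. Both of these falls also stayed inside their intervals and are among the 59. Searched as its reverse complement, GGAC was present at 25% in replicate 1 and at 0% in replicate 2. Ranked among the strongest exonic peak of each gene, the MARCHF9 last-exon peak stood at percentile 99.03 in replicate 2 in place of 99.46. The cause of these shifts was not tested, beyond the smaller windows and fewer peaks that the alternatives use by construction. No paired analysis was possible because the input samples entered no comparison and the IP samples form 1 group. The depth is unknown, each replicate is 1 list, and shares over 5 or 8 peaks move by 20 or 12.5 points with a single peak.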
